A study of Mus musculus with 4 samples.

Results

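The genes described here are 10 epithelial genes of the surface ectoderm, the sheet of cells that covers the limb bud. They are the transcription factor genes Trp63, Grhl2 and Grhl3, the splicing factor gene Esrp1, the keratin genes Krt5, Krt14, Krt8 and Krt18, and the adhesion genes Epcam and Cdh1. They were named as a list, out of 21536 protein-coding genes with a known strand. No cut on the values below picked them, but the list was chosen with earlier results of these data known. The assay was ATAC-seq on cells from limbs of wild-type mice, in which the Tn5 transposase inserts adaptors into DNA that is not packed away. Embryos were of the stages E10.5 and E11.5, in days of gestation, with 2 samples each. Both stages used fore- and hindlimbs together, from animals with no altered allele or treatment, and the protocol in the labels writes the earlier stage as E10. The number of embryos behind a sample is not given in the sources used here. The deposited data were 1 peak list per stage, made from both replicates, with 99427 peaks for E10.5 and 37548 for E11.5. For each gene, every peak that touched the gene body or the 50 kb on either side was taken (build mm10). This gave 105 E10.5 peaks and 26 E11.5 peaks.

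The limb bud is a core of mesenchyme under a thin ectoderm, and the ectoderm is the tissue that makes Wnt7a, En1 and the ridge signals that pattern the limb. Its epithelial state is held by p63 and the grainyhead-like factors, which act on keratin, cadherin and claudin genes, and by Esrp proteins, which set epithelial splicing. Krt8 and Krt18 form the keratin pair of simple epithelia and of early surface ectoderm, and Krt5 and Krt14 form the pair of the basal layer of stratified epithelia. The labels name no sorting of cells, so a peak can come from any cell type of the limb. In such samples, fewer cells of a type and fewer accessible copies per cell cannot be told apart.

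A peak is called a promoter peak here if any of its bases lie within 1 kb of the gene's start site, intragenic if it otherwise touches the gene, and flanking if it does neither. Each peak carries a signal value set by the authors, a total over the peak that grows with its width. Ranks are given within a list, with 1 as the highest signal. As each list joins both replicates, there is no spread between samples and no test between stages, and the depth of the samples is unknown. The number of peaks a list holds can follow from depth, so counts are read beside the same counts over all genes or peaks.

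At E10.5, 9 of the 10 genes had a promoter peak, and at E11.5 the number was 6. The order of the lists at equal size depended on how peaks were picked. With the E10.5 list reduced by signal to as many peaks as the E11.5 list, 7 of the 10 genes kept an E10.5 promoter peak. Reduced by −log10 p or by signal per bp, it kept such a peak for only 2, fewer than the 6. The share of all protein-coding genes in the reduced lists was not computed, so these counts lack a background. Over all protein-coding genes the full E10.5 list gave 66.3% and the E11.5 list 59.9%. The gene without a promoter peak in either list was Trp63, which was scored at its outer start site only and not at its inner promoter. The genes with one at E10.5 only were Krt5, Krt14 and Grhl2, and those with one in both lists were Krt8, Krt18, Epcam, Cdh1, Grhl3 and Esrp1. Of the 9 genes with a promoter peak at E10.5, 66.7% therefore had one at E11.5, against 89.9% of all protein-coding genes with an E10.5 promoter peak. These shares are not matched on signal, and all 9 genes were below the median promoter signal of all genes at E10.5. An intragenic peak was present in 6 of the 10 genes in the E10.5 list and in 3 in the E11.5 list, against 45.2% and 28.2% of all protein-coding genes, whose lengths differ from those of these genes.

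**Figure D1:**
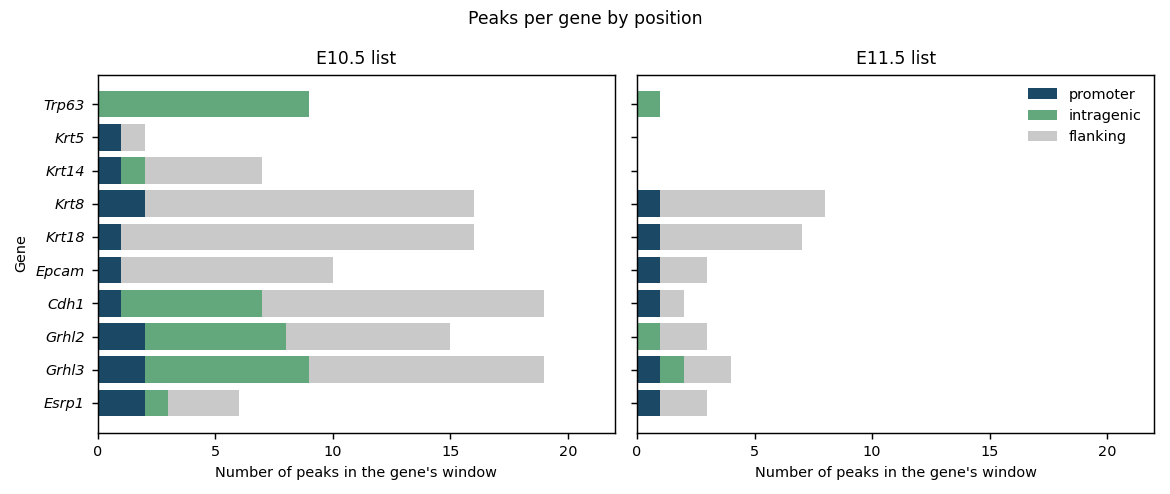
Number of peaks in each gene's window (gene body and 50 kb on either side), on the horizontal axis, for the E10.5 list on the left and the E11.5 list on the right, split by colour into promoter, intragenic and flanking peaks. Krt5 and Krt14 have no E11.5 peak at all, and the longest E11.5 bar is that of Krt8 with 8 peaks.

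The sequences of 6 promoters were at hand from RefSeq (GRCm38.p6, the assembly of mm10), and they are shown because 5 of them lie wholly or partly under an E10.5 peak and the other, of Krt14, lies just beside one. Each run is the 250 bases before the start site, 5′ to 3′ in the direction of the gene, with letters in capitals where a searched motif matched on either strand.
Krt5, chr15:101712906-101713155, minus strand: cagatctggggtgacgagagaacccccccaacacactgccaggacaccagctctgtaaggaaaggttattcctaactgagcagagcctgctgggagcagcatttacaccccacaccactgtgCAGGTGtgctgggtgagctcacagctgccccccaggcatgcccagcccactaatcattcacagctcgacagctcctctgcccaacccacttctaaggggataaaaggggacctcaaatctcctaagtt
Krt14, chr11:100206031-100206280, minus strand: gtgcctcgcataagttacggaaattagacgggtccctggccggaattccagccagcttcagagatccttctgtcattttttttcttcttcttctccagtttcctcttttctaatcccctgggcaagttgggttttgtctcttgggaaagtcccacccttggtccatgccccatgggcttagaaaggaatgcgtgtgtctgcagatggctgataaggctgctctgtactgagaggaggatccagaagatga
Krt8, chr15:102004343-102004592, minus strand: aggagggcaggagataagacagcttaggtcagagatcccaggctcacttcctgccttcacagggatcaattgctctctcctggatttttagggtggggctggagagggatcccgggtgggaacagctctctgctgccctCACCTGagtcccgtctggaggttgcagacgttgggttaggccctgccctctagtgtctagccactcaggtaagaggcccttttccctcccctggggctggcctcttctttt
Krt18, chr15:102027966-102028215, plus strand: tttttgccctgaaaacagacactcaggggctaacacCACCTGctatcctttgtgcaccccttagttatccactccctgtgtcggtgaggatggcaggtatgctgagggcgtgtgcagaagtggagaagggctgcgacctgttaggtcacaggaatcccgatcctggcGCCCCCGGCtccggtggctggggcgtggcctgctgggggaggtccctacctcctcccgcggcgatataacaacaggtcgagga
Epcam, chr17:87635729-87635978, plus strand: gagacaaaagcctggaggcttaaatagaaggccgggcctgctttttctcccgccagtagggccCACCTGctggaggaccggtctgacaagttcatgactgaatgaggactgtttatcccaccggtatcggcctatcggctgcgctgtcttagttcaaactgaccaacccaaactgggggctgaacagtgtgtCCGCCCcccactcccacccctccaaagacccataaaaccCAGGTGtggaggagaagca
Grhl3, chr4:135573633-135573882, minus strand: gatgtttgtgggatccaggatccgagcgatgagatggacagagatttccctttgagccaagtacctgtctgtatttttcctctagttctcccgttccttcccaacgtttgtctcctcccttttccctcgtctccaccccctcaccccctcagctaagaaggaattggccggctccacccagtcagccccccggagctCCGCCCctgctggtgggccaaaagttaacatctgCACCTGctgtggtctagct

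E10.5 peaks covered all 250 bases shown for Krt8, Krt18 and Epcam, 189 of those for Krt5, 179 of those for Grhl3 and 0 of those for Krt14. E11.5 peaks covered 131 bases for Krt18 and 120 for Grhl3, and 0 for the other 4. Of the motifs searched on both strands, CACCTG, the E-box bound by the ZEB and Snail repressors of epithelial genes, was found in 5 of the 6 promoters, against 16.5% of 17492 protein-coding promoters of the same length. It starts 128 bases before the start site in Krt5, 111 in Krt8, 214 in Krt18 and 19 in Grhl3, and in Epcam at 2 places, 187 and 19 bases before it. The GC box GGGCGG of SP and KLF factors was in Epcam and Grhl3, and in 42.7% of all promoters. The AP-2 motif GCCNNNGGC was in Krt18 only among the 6, and in 16% of all. The grainyhead-like motif AACNNGTT (3.73% of all promoters), its strict form AACCGGTT that it contains (0.143%), the p63 pair of CATG, 6 bases of any kind and CATG (0.423%) and the TATA box letters TATAAA (12.4%) were in 0 of the 6. These are matches of letters in a window of 250 bases and say nothing about binding. The 6 promoters held between 2 (Krt5) and 12 (Krt18) CpG dinucleotides, with 3 in Krt8, 5 in Krt14 and 8 each in Epcam and Grhl3. The median of all promoters was 10.

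Among the transcription factor genes, Trp63 encodes p63, the factor that commits ectoderm to a stratified fate. The gene (chr16:25683763-25892088, plus strand) is 208326 bp long and has an inner promoter for its short form, whose position in mm10 was not used here. All 9 E10.5 peaks of the window lay inside the gene, 63.3 to 194 kb downstream of the outer start site, and the 50 kb on either side held 0. Their signal ran from 252 to 1357. The strongest, at chr16:25849571-25850435, lay 166 kb downstream with a signal of 1357 and rank 35982 of 99427, and no E11.5 peak overlapped it. The single E11.5 peak, at chr16:25746903-25747142, had a signal of 248 and rank 33558 of 37548. It lay 63.2 kb downstream and overlapped an E10.5 peak of signal 865 (rank 48711), with the summits 42 bp apart. Of the 9 peaks at E10.5, 1 thus had a counterpart at E11.5, and it was the one nearest to the outer start site.

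Grhl2 is a grainyhead-like factor that keeps up Cdh1 and junction genes in epithelia. The gene (chr15:37232821-37363569, plus strand) had 15 E10.5 peaks, of which 2 were promoter, 6 intragenic and 7 flanking, and 3 E11.5 peaks. The E10.5 peak over the start site, at chr15:37232010-37233467, had a signal of 1973 and rank 26823, and no E11.5 peak overlapped it. The second, at chr15:37233708-37234936, began 887 bp from the start site, with a signal of 1606 and rank 31644. It overlapped an E11.5 peak at chr15:37234135-37234677, with a signal of 249 and rank 33487, which lay 1314 bp from the start site and so counts as intragenic. The change from promoter to intragenic thus rests on the edge of 1 shared region, while the region over the start site is in the E10.5 list alone. The 6 intragenic E10.5 peaks had signals of 301 to 1491, the strongest of them 60.6 kb downstream at chr15:37292980-37293824 (rank 33450), and none overlapped an E11.5 peak. The strongest flanking E10.5 peak, at chr15:37197968-37198650, lay 34.7 kb upstream with a signal of 1249 (rank 38196) and had no overlap either. At E11.5 the flanking peak with the highest signal, 389 (rank 26349), lay 29.6 kb upstream at chr15:37203175-37203399 and had no E10.5 overlap. The other, in Ncald 145 kb downstream, had a signal of 236 and overlapped an E10.5 peak of 1008.

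Grhl3, which acts in closure of epithelial sheets and in the skin barrier, had more intragenic peaks than Grhl2 in a shorter gene. It (chr4:135541887-135573632, minus strand) is 31746 bp long and had 19 E10.5 peaks, of which 2 were promoter, 7 intragenic and 10 flanking, and 4 E11.5 peaks. The peak over the start site, at chr4:135572859-135573811, had a signal of 1637 and rank 31196 at E10.5. It overlapped an E11.5 peak at chr4:135573496-135573752 with a signal of 223 and rank 35459, and the summits were 66 bp apart. The second promoter peak at E10.5 (chr4:135572034-135572729, signal 1175, rank 39788) had no overlap. The strongest intragenic peak, 3.40 kb downstream at chr4:135569745-135571898, had a signal of 6044 and rank 7021, and it overlapped an E11.5 peak at chr4:135570139-135571207 with a signal of 990 and rank 15919. It was the highest peak inside the body of any of the 10 genes in either list. The other 6 intragenic peaks at E10.5 had signals of 538 to 3229, and none overlapped an E11.5 peak. The strongest flanking peak, at chr4:135493707-135495599, lay 79.0 kb downstream over the starts of Nipal3 and Stpg1 and had an E10.5 signal of 5532 (rank 8275) and an E11.5 signal of 2515 (rank 8519). An E11.5 peak at chr4:135623267-135623734 (signal 586, rank 20985), at the upstream end of the window, had no E10.5 overlap.

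Esrp1 encodes a splicing factor that sets epithelial exons such as that of Fgfr2. The gene (chr4:11331933-11386783, minus strand) had 6 E10.5 peaks and 3 E11.5 peaks. The E10.5 peak over the start site, at chr4:11386579-11387018, was weak, with a signal of 235 and rank 93499, and had no overlap. The stronger promoter peak, at chr4:11387174-11388562, began 391 bp upstream and had a signal of 2509 and rank 21787. It overlapped 2 E11.5 peaks. The first (chr4:11387174-11387619, signal 457, rank 24036) counts as a promoter peak, and the second (chr4:11387861-11388488, signal 478, rank 23446) lay 1078 bp from the start site and counts as flanking. The region shared by the lists was thus upstream of the Esrp1 start site. It overlapped the gene Gm35631 and not Esrp1, with Esrp1 as the nearest protein-coding start. A single intragenic peak at E10.5 (chr4:11359273-11359505, signal 256, rank 90336) had no overlap. The strongest flanking peak lay 64.5 kb downstream over the start of Dpy19l4, with an E10.5 signal of 4385 (rank 11852), an E11.5 signal of 3900 (rank 4820) and the summits at the same base.

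Taking each gene's strongest promoter peak at E10.5, those of the basal keratin genes were the weakest of the 9. Krt5 (chr15:101707069-101712905, minus strand) had 2 E10.5 peaks and 0 E11.5 peaks. Its promoter peak, at chr15:101712822-101713094, spans the start site with a signal of 246 and rank 91833 of 99427. The other (chr15:101704129-101704585, signal 610, rank 59938) lay past the end of the gene, 8.60 kb downstream of the start site. Krt14 (chr11:100203162-100207510, minus strand) had 7 E10.5 peaks and 0 E11.5 peaks. Its outer start site lies 1480 bp upstream of the start site of the sequence shown above. The promoter peak, at chr11:100206289-100206618, had a signal of 320 and rank 82081, and its edge was 892 bp from the outer start site, close to the 1 kb limit. A peak of signal 688 on the other side, at chr11:100208596-100209119, was 1086 bp away and so counts as flanking. The intragenic peak, at chr11:100203496-100203785, had a signal of 755 and rank 53084. The strongest peak of the Krt14 window (chr11:100168820-100169709, signal 1916, rank 27495) lay 38.4 kb downstream in the noncoding gene Gm39022, with Krt19 as the nearest protein-coding start. For the basal pair, 9 peaks at E10.5 stood against 0 at E11.5, and a window without an E11.5 peak, seen for 2 of the 10 genes, was seen for 15.5% of all protein-coding genes.

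Krt8 and Krt18 lie side by side on chromosome 15 head to head, so their windows share 14 of 16 E10.5 peaks each and 5 of the E11.5 peaks. Krt8 (chr15:101996711-102004342, minus strand) had the strongest promoter peak of the 10 genes in both lists. At E10.5 it lay at chr15:102002768-102004059, from 283 bp downstream of the start site into the gene, with a signal of 4468 and rank 11549. The E11.5 peak at chr15:102002871-102003510, with a signal of 1285 and rank 13819, overlapped it. A second E10.5 peak, over the start site itself (chr15:102004200-102004779, signal 560, rank 62806), had no overlap. The open region shared by the lists therefore lay inside Krt8, and that over its start site was in the E10.5 list alone. Krt18 (chr15:102028216-102032026, plus strand) had 1 promoter peak in each list, both over the start site. The E10.5 peak, at chr15:102027948-102029015, had a signal of 1288 and rank 37345. The E11.5 peak, at chr15:102028085-102028269, had a signal of 210 and rank 36679 of 37548, near the lowest signal that the list holds.

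No intragenic peak was found in Krt8 or Krt18 in either list. Between the pair, a flanking peak at chr15:102006314-102008199, 3.33 kb upstream of Krt8, had a signal of 3726 and rank 14560 and no E11.5 overlap. The strongest flanking peak of both genes at E10.5 lay on the Krt8 side in Krt78, at chr15:101975426-101978444, 26.8 kb downstream of the Krt8 start site, with a signal of 8344 and rank 3291. It overlapped 2 E11.5 peaks, of which the stronger (chr15:101977011-101977895, signal 1845, rank 11001) was the strongest flanking peak of Krt8 at E11.5. For Krt18 the strongest at E11.5 was over the start of Eif4b, at chr15:102073335-102074755, with a signal of 4108 and rank 4371. It overlapped an E10.5 peak of signal 4888 (rank 10056). Krt8 and Krt18 held the most E11.5 peaks of the 10 windows, with 8 and 7, and all of these overlapped an E10.5 peak.

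Of the adhesion genes, Epcam encodes a surface protein of most epithelia. The gene (chr17:87635979-87651127, plus strand) had 10 E10.5 and 3 E11.5 peaks, and 0 of them were intragenic. Its promoter peak at E10.5 (chr17:87635687-87637269, signal 1977, rank 26790) spans the start site. The E11.5 peak that overlapped it (chr17:87636172-87637240, signal 1091, rank 15085) began 193 bp downstream, and the summits were 886 bp apart. A flanking peak at chr17:87612453-87614851 lay 22.4 kb upstream in the gene Gm46609 and had Epcam as its nearest protein-coding start. It had a signal of 5975 (rank 7194) at E10.5 and overlapped an E11.5 peak of 2157 (rank 9748).

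Cdh1 encodes E-cadherin, the adhesion protein of epithelial junctions. The gene (chr8:106603350-106670247, plus strand) had 19 E10.5 peaks, of which 1 was promoter, 6 intragenic and 12 flanking, and 2 E11.5 peaks. The promoter peak spans the start site in both lists. At E10.5 (chr8:106603136-106603856) it had a signal of 1400 and rank 35124, and at E11.5 (chr8:106603161-106603530) a signal of 305 and rank 30036, with the summits 5 bp apart. The 6 intragenic peaks at E10.5 had signals of 239 to 1173, the strongest of them 16.3 kb downstream at chr8:106619432-106620148 (rank 39857). None overlapped an E11.5 peak. The strongest flanking peak, over the start of Tango6 80.2 kb downstream, had an E10.5 signal of 3990 (rank 13441) and an E11.5 signal of 2492 (rank 8598), and it was the only one of the 12 flanking peaks with an E11.5 overlap.

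**Figure D2:**
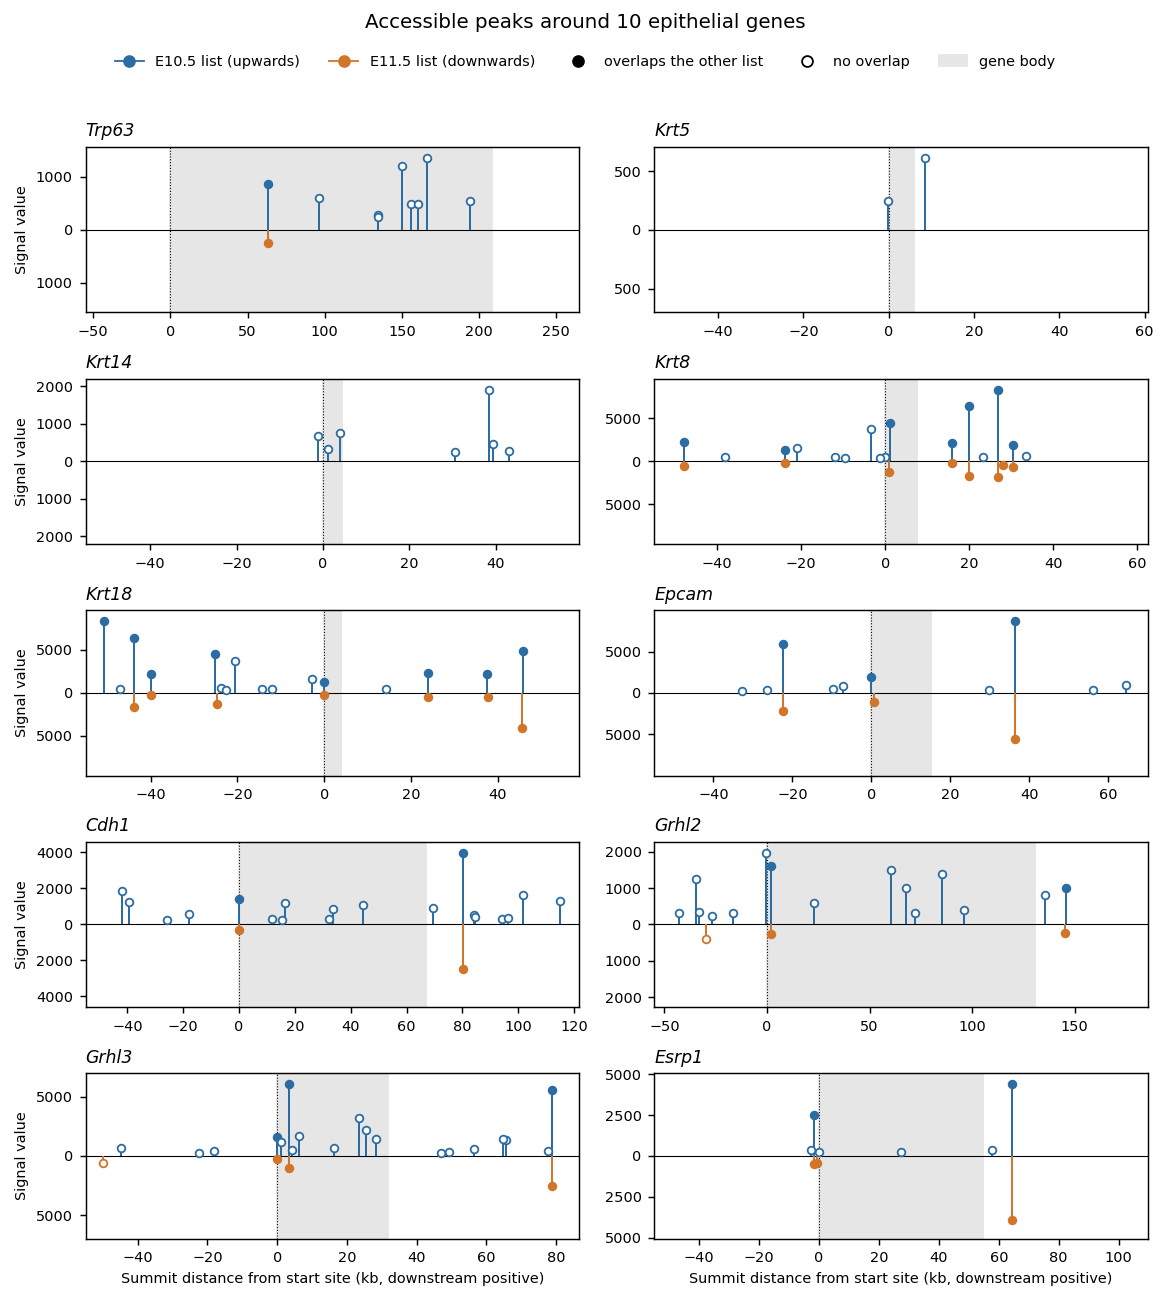
Peaks in the windows of the 10 genes, 1 panel per gene, at the distance of the peak summit from the gene's start site (horizontal axis, kb, downstream positive) and with the authors' signal value as height (vertical axis, its own scale in each panel), upwards for E10.5 and downwards for E11.5. Filled points overlap a peak of the other list, also where that peak lies just outside the window, open points do not, and grey marks the gene body. All 6 intragenic E10.5 points of Cdh1 are open, as are 8 of the 9 of Trp63.

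Signal per bp allows promoters of unlike width to be set side by side. At E10.5 the strongest promoter peak had 3.46 signal per bp in Krt8, 1.94 in Cdh1, 1.81 in Esrp1 and 1.72 in Grhl3. It had 1.35 in Grhl2, 1.25 in Epcam, 1.21 in Krt18, 0.97 in Krt14 and 0.90 in Krt5. The median over all protein-coding genes with a promoter peak was 3.06. At E11.5 the values were 2.01 in Krt8, 1.13 in Krt18, 1.03 in Esrp1, 1.02 in Epcam, 0.87 in Grhl3 and 0.82 in Cdh1, with a median of 2.45 over all genes. Krt8 was thus the only one of the genes above the median of all genes, and only at E10.5. With 1 value per list, whether neighbours in this order differ cannot be told. By total signal, all 9 promoters with an E10.5 peak and all 6 with an E11.5 peak were below the median of all genes, which was 4738 in the first list and 3070 in the second. Among the 14268 genes with an E10.5 promoter peak, Krt8 ranked 7636, Esrp1 11119 and Krt5 14188. Among the 12907 such genes at E11.5, Krt8 ranked 10592 and Krt18 12874.

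Over the 10 windows together, peaks of 2 windows being counted once, the 105 E10.5 peaks comprised 13 promoter, 30 intragenic and 62 flanking peaks. Of these, 22 overlapped an E11.5 peak, which is 21% (95% Wilson interval 14.3 to 29.7%, counting error only), against 32.3% of all E10.5 peaks. By position, 7 of the 13 promoter peaks, 2 of the 30 intragenic peaks and 13 of the 62 flanking peaks did so. The same shares of all intragenic and all flanking E10.5 peaks were not computed. Of the 13 shared flanking peaks, 5 lay within 1 kb of the start site of another protein-coding gene, as did 6 of the 62. The 26 E11.5 peaks comprised 6 promoter, 3 intragenic and 17 flanking peaks, and 24 of them overlapped an E10.5 peak, which is 92.3% (75.9 to 97.9%), against 91.8% of all E11.5 peaks. The 2 E11.5 peaks without overlap were the flanking ones of Grhl2 and Grhl3 given above. The median signal of the E10.5 peaks was 680, against 838 in the whole list, and it was 2407 in those with and 533 in those without an E11.5 overlap. Where peaks overlapped, the summits were a median of 35 bp apart at E10.5, against 24 bp in the whole list.

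Overlap rose with signal in the whole E10.5 list, so the share was also read by signal. Of E10.5 peaks over 1 kb from any protein-coding start site, those in the windows numbered 24, 25 and 21 in the lower 3 quartiles of signal and 16 in the highest. In the lowest quartile 0 of 24 overlapped an E11.5 peak (0 to 13.8%), against 3.91% of all such peaks. In the next, 0 of 25 did (0 to 13.3%), against 8.09%. The third quartile had 2 of 21 (9.52%, 2.65 to 28.9%) against 20.4%, and the highest 8 of 16 (50%, 28.0 to 72.0%) against 61.5%. Near a protein-coding start site, 12 of 19 did (63.2%, 41.0 to 80.9%) against 86%. The share in the windows was below that of the whole list in each class. Its interval held the whole-list value in all 4 quartiles and did not hold it near start sites. The class near start sites was not split by signal, and the strongest promoter peak of each of the 9 genes was below the median of all genes, so the 63.2% and 86% are not matched on signal. Peaks of 1 gene lie close together and are not independent, which the intervals do not cover.

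**Figure D3:**
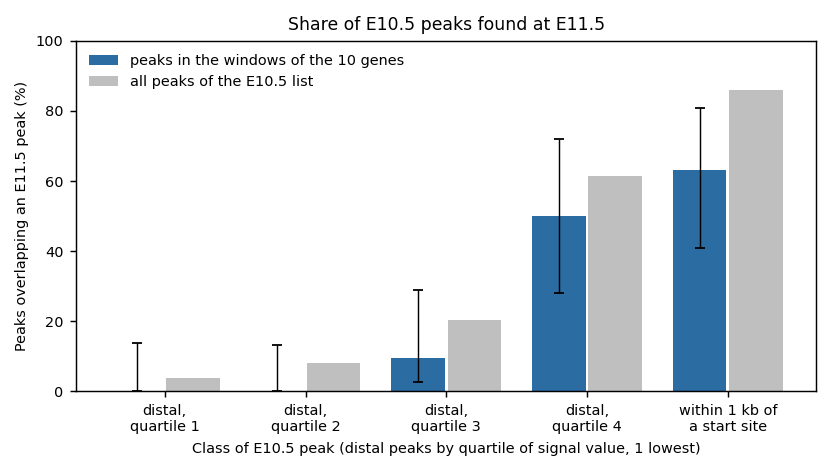
Share of E10.5 peaks that overlap an E11.5 peak (vertical axis, percent), for peaks in the windows of the 10 genes (blue, with 95% Wilson intervals) and for all peaks of the E10.5 list (grey), by class of peak: more than 1 kb from protein-coding start sites by quartile of signal value, or within 1 kb of one. In the lower 2 quartiles the blue share is 0, and near start sites, where peaks were not matched on signal, it is 63.2% against 86%.

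A wider list of 40 epithelial genes, covering other keratins, basement membrane and junction proteins, proteases and transcription factors, was read in the same way. At E10.5, 38 of the 40 had a promoter peak, and at E11.5 18 did, all of them among the 38. Over all protein-coding genes the shares were 66.3% and 59.9%. With the E10.5 list reduced to the size of the E11.5 list, the 38 became 31 by signal, 20 by −log10 p and 16, below the 18, by signal per bp. As above, the share of all protein-coding genes in the reduced lists was not computed. Lamb3 and Cldn6 had none in either list. Of the 20 genes with an E10.5 promoter peak only, those of highest signal were Sfn, a keratinocyte 14-3-3 protein (5924), the AP-2 factor Tfap2c (3346), the keratin Krt7 (2888) and the protease Prss8 (2058). They were followed by the desmosome gene Pkp1 (1962), the tight junction gene Cldn3 (1899) and the hemidesmosome integrin Itgb4 (1879). The promoters with the highest signal were shared, namely those of Cdh3 (P-cadherin), with 10760 in the E10.5 list and 1398 in the E11.5 list, Klf5, with 8368 and 7064, and Esrp2, with 8321 and 676. Of the 38 promoters at E10.5, 47.4% had a peak at E11.5, against 66.7% of the 9 above. The share was 89.9% for all protein-coding genes with an E10.5 promoter peak. These shares are not matched on signal, and 28 of the 38 promoters were below the median of all genes at E10.5. The median signal of the 38 was 1957 at E10.5, below the median of all genes as it was for the 10 genes (1637).

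Genes of other cell types in the limb were set beside these. Of all protein-coding genes, 66.3% had a promoter peak at E10.5 and 59.9% at E11.5. All 10 limb mesenchyme genes had a promoter peak in both lists, with median signals of 7466 (E10.5) and 2885 (E11.5), and Pdgfra (19004), Prrx1 (17871) and Msx1 (16489) had the highest E10.5 values. By total signal 9 of these 10 promoters thus lay above the median of all genes at E10.5, but per bp their medians of 2.59 (E10.5) and 1.57 (E11.5) were below those of all genes, 3.06 and 2.45. The medians of the surface ectoderm genes per bp were 1.35 and 1.02. Of 10 endothelial genes, 6 had an E10.5 promoter peak and 3 an E11.5 one. Of 10 blood genes 6 had one in each list, 5 of them in both. The 6 of 10 in the endothelial list at E10.5 and in the blood list at both stages were near the shares of all genes. For 5 muscle precursor genes the numbers were 5 and 2, with Myf5 (2065) as the strongest found at E10.5 only, and for 5 nerve and glia genes 5 and 4. Late epidermal genes, which switch on as skin keratinizes, had a promoter peak in 1 of 10 cases in both lists, that of Lor (E10.5 signal 4832, E11.5 signal 6323). At E10.5, 9 of the 10 early epithelial genes and 1 of 10 genes of the later program thus had a promoter peak, against 66.3% of all. The 9 were all below the median signal of all genes. With the E10.5 list cut to the E11.5 size, the 9 became 7 by signal and 2 by −log10 p or signal per bp. Counting each gene's window, there were 3.84 E10.5 peaks per E11.5 peak for the 10 genes, 2.36 for the wider list, 2.24 for the mesenchyme list, 3.91 for the endothelial list, 7 for the muscle precursor list, 3 for the late epidermal list, 2.11 for the nerve and glia list and 1.46 for the blood list. The ratio was 2.10 for all protein-coding genes, below that of every list but the blood list. These ratios count a peak once for each window it touches. With each peak counted once, the ratio was 2.66 over the whole lists and 4.04 in the windows of the 10 genes. For the other lists the ratio with each peak counted once was not computed, so their window ratios are not set against 2.66. The share of ectoderm in the samples, and its part in the counts, was not tested.

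**Figure D4:**
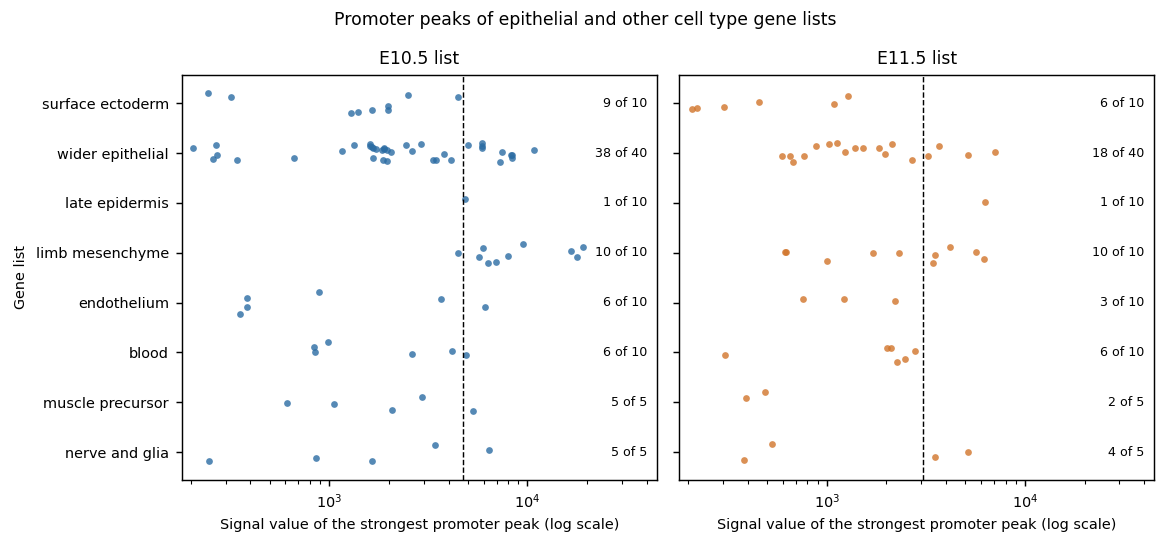
Signal value of the strongest promoter peak of each gene (horizontal axis, log scale) by gene list (vertical axis), for the E10.5 list on the left and the E11.5 list on the right. Each point is 1 gene, the text at the right gives the genes with a promoter peak of those located, and the dashed line is the median of all protein-coding genes with a promoter peak. All surface ectoderm points lie left of the dashed line in both panels, and all but 1 of the 10 limb mesenchyme points lie right of it at E10.5 on this scale of total signal, while per bp their median is below that of all genes.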

How the data were processed

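Chromatin accessibility was measured by ATAC-seq in 4 samples, 2 at each stage, with groups taken from the sample titles. The submitters' processing notes name cutadapt, Bowtie2, SAMtools, deepTools and Genrich without roles. Filters, any Tn5 offset applied to reads and how replicates were joined are not given in the sources used here. Per the labels, the 2 lists are narrowPeak tables on mm10, without a header line. The signal value, the −log10 p-value and the score of each peak are the authors' own. The deposited score equals signal per bp times 1000, capped at 1000, and the q-value column holds no value, so neither was used.

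Peaks on chromosomes 1 to 19, X and Y were used, and ranks count every peak of a list. Gene ends came from RefSeq (GRCm38.p6). Strand came from the RefSeq promoter table by gene identifier and otherwise from GENCODE M1 by symbol, and 21536 of 21887 protein-coding genes (98.4%) received one. For peaks, the start site is the outer end of the gene. The sequences shown, the motif search and the alternative setting with added start sites used the start sites of the RefSeq promoter table. Other start sites, exons and untranslated regions were not used. Lists shared a peak where at least 1 base overlapped. The members and gene lists were chosen with earlier results of these data known. Named were all 10 genes, with their promoter peaks, their strongest intragenic and flanking peak in each list and E11.5 peaks without overlap. From the other lists, up to 8 genes with a promoter peak in 1 list only and the 3 strongest of the epithelial and of the mesenchyme list were named. Other peaks and the counts at the edge of a limit were named after their values were seen. For Epcam, 1 flanking result is not reported here. Interval code was tested on simulated data. Computation used Python 3.11.15, pandas 2.3.3 and scipy 1.17.1.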

Additional observations from a re-analysis of the deposited data

How the results depend on the processing

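No paired analysis was possible because the replicates of a stage stand in the same list, and none could be left out. Sequencing depth is unknown, so the weakest peaks of either list, and the absence of one, are the least certain values. Over 12 alternative settings and 10 results, 28 of 56 values stayed within 1.5 times the reported count or within the 95% interval of the reported share. Promoter distances of 500 bp and 2 kb and added start sites left every count of promoters within that limit.

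The cause was not tested for the values that moved, other than that stricter settings hold fewer peaks. With a −log10 p of at least 5, window peaks fell to 54 (E10.5) and 14 (E11.5), and E11.5 promoter peaks to 2 of the 10 genes and 11 of the wider list. No gene then had an intragenic E11.5 peak (0). With the E10.5 list reduced to as many peaks as the E11.5 list by signal, 35 window peaks and 3 genes with an intragenic peak were left and the shared part was 57.1% of the E10.5 peaks. E10.5 promoter peaks were then found in 7 of the 10 genes and 31 of the wider list. Reduced by −log10 p instead, the list kept 26 window peaks, promoter peaks in 2 of the 10 genes and 20 of the wider list, and intragenic peaks in 2 genes, and 57.7% (E10.5) and 61.5% (E11.5) of peaks were shared. Reduced by signal per bp, it kept 32 window peaks and promoter peaks in 2 genes and 16 of the wider list, with 50% and 65.4% shared. Under both of these settings fewer of the 10 genes had a promoter peak at E10.5 than at E11.5, the opposite of the reported order. The share of all protein-coding genes was not computed for the stricter or the reduced lists. Flanks of 20 kb held 17 E11.5 peaks, of which 100% were shared. Flanks of 100 kb held 185 and 45 peaks. Peaks nearest to a start site of the 10 genes numbered 67 and 13. A reciprocal overlap of 50% gave shared parts of 9.52% and 38.5%, and summits within 100 bp gave 73.1% of E11.5 peaks.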
